A study of Mus musculus with 4 samples.

Results

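Alveolar fibroblasts with a high level of the recombined reporter were compared with alveolar fibroblasts that had little or none of it. The cells came from mouse lungs at an age of about 8 weeks, after tamoxifen dosing, were sorted as negative for the leukocyte protein CD45 and the endothelial protein CD31, and went through droplet 3′ RNA sequencing. All animals carried 1 Gli1-CreERT2 allele, which puts a tamoxifen-activated Cre recombinase under the Gli1 locus, and 1 Rosa26 mTmG allele, a reporter that makes tdTomato until Cre removes it and EGFP afterwards. Reporter-high and reporter-low cells therefore shared both alleles, the tamoxifen and the sort, and were told apart by the reporter transcript alone. The labels name the strain as B6D2F1/J in the protocols and C57BL/6J among the characteristics, and the sources used here give neither the tamoxifen dose nor the time from dosing to harvest. All 4 samples share 1 set of labels and were pooled in 1 library without a map from cells to samples. The library counted as 1 sample, no test was made over cells, and every 95% interval below covers counting error only.

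Cells were chosen from unique molecular identifiers (UMIs), each of which stands for 1 captured transcript molecule. Of 11118 barcodes, 9391 passed a minimum of 500 genes and a maximum of 10% of UMIs from mitochondrial genes. Among these, 6908 had no UMI of Epcam, Ptprc or Pecam1, which mark epithelial cells, leukocytes and endothelial cells, and 3482 of them had no UMI of the adventitial fibroblast gene Pi16. Requiring at least 2 UMIs of Npnt, 1 of Tcf21 and 5 of Inmt, genes of alveolar fibroblasts, left 1798 cells. Of these, 585 were reporter-high, with Egfp at 1000 UMIs or more per 1000000 UMIs of the cell (CPM) (32.5%, exact binomial interval 30.4 to 34.8%), and 1018 were reporter-low, with Egfp under 200 CPM (56.6%, 54.3 to 58.9%). The other 195 lay between. Median depth was 6128 UMIs per cell in the reporter-high set, 4776 in the middle set and 5514 in the reporter-low set. Levels below are UMIs per 1000000 (CPM), for a set after summing over its cells, with exact Poisson intervals, and ratios are reporter-high over reporter-low with exact conditional binomial intervals.

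Gli1 is a transcription factor and a target gene of hedgehog signalling. In this pathway a secreted ligand binds Patched receptors, which frees Smoothened to activate the Gli factors, and these in turn raise Ptch1, Hhip and Gli1 itself. A Gli1-driven recombinase thus marks cells in which the Gli1 locus was active while tamoxifen was present, and their descendants keep the mark. In the adult lung, hedgehog-responsive fibroblasts are best known from the adventitia of airways and vessels, while alveolar fibroblasts line the alveolar walls and support the epithelium there. A recombined mTmG allele loses tdTomato and gains EGFP, so the reporter can be read from both transcripts.

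The label of alveolar fibroblasts was checked on markers that the rule had not used. Of 14 detected markers of alveolar fibroblasts, 11 were at least 2-fold higher in the selected cells than in 3510 Pi16-positive, Epcam-negative cells of the same library, and none was at 0.5-fold or less (median ratio 6.49). Mfap4, a microfibril protein gene, had a UMI in 99.2% of the selected cells and reached 4053 CPM, against 2230 CPM in the Pi16-positive cells. None of 22 adventitial markers was 2-fold higher in the selected cells and 19 were at 0.5-fold or less (median ratio 0.0665). Since Pi16, an adventitial gene, set the selected and the comparison cells apart, these lower values cannot check the label. Some adventitial markers were common in the selected cells. Clec3b, Mfap5 and Dpep1 had a UMI in 90.1, 82.5 and 89.0% of them. Their levels were 744, 980 and 560 CPM, against 2778, 1849 and 502 CPM in the Pi16-positive cells.

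Egfp set the groups, so its values are given as a description. In the reporter-high cells Egfp ran from 1003 CPM through a median of 3349 to 10491, and each of these cells held at least 2 Egfp UMIs. Among the reporter-low cells 868 had no Egfp UMI, the median was 0 and the highest value was 199.84 CPM. The cells just inside the upper threshold had 1003.01, 1029.58 and 1081.08 CPM, and those just below it had 982.962, 984.413 and 997.838. Around the lower threshold, cells with 198.728, 199.442 and 199.84 CPM fell inside and cells with 200.04, 200.08 and 201.167 fell outside, and all 6 of them held a single Egfp UMI. The lower threshold thus split cells with 1 Egfp UMI by their depth, at about 5000 total UMIs. Summed Egfp was 3407 CPM in the reporter-high, 435 in the middle and 25.5 in the reporter-low set. A set of 1680 Epcam-positive cells rich in Sftpc, the gene of alveolar type 2 surfactant protein C, had 191 CPM of Egfp, and 54.3% of these cells held an Egfp UMI at a median depth of 10400.5 UMIs. An Egfp UMI was held by 14.7% of the reporter-low fibroblasts, a share that the lower threshold itself helps to set, so it is not compared with the epithelial one.

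TdTomato, the reporter transcript of the unrecombined allele, was found mostly in the cells below the upper Egfp threshold. It had a UMI in 5 of 585 reporter-high cells (0.855%, 0.278 to 1.98%), in 48 of 195 middle cells (24.6%, 18.7 to 31.3%) and in 237 of 1018 reporter-low cells (23.3%, 20.7 to 26.0%). The highest cell held 2 TdTomato UMIs in the reporter-high set and 4 in the reporter-low set, and the median cell held 0 in both. Summed levels were 1.81 and 49.2 CPM, a ratio of 0.0367 (0.0146 to 0.0765). With every cell thinned to 2000 UMIs, which left out 3 reporter-high and 11 reporter-low cells, the shares were 0.515% and 8.24%. By Egfp level, none of the 99 cells with 1000 to 2000 CPM had a TdTomato UMI (exact interval 0 to 3.66%), and the share was 1.10% from 2000 to 4000 and 0.935% from 4000 upward. The middle cells therefore resembled the reporter-low cells in TdTomato, although all 195 of them held an Egfp UMI. Reporter-low cells without a TdTomato UMI were the majority, so this transcript cannot classify a single cell at this depth.

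**Figure D1:**
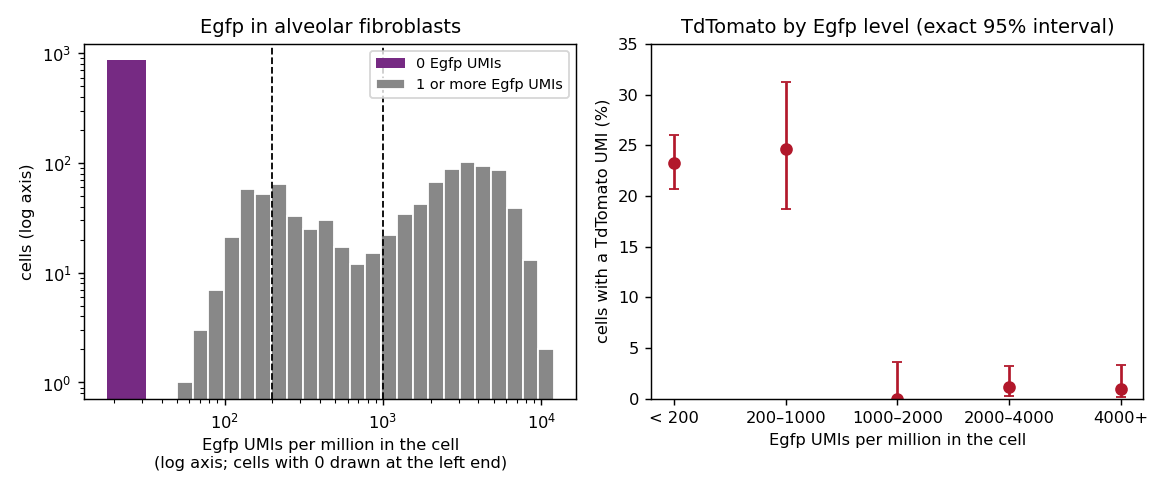
Left, number of the 1798 alveolar fibroblasts (log axis) by Egfp CPM of the cell (log axis), with the 868 cells at 0 drawn at the left end and dashed lines at 200 and 1000 CPM. Right, percent of cells with a TdTomato UMI in 5 ranges of Egfp, with exact binomial 95% intervals, which is 23.3 and 24.6% in the lower ranges and at most 1.10% above 1000 CPM.

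Among the genes tested, which include TdTomato, the 2 sets were alike in most and differed most in a small group. Of 8253 genes with at least 100 UMIs over both sets, leaving out those the rule used, 31 (0.376%) were at least 2-fold higher in reporter-high cells and 42 (0.509%) were at 0.5-fold or less. At 1.5-fold the counts were 160 higher (1.94%) and 187 lower (2.27%). The median ratio was 0.997. Among the higher genes with a UMI in at least 10% of reporter-high cells were Rbp4, Lamc3, Cdh22, Fgl2 and Pla2g7, and among the lower genes were Bmper, Chd7, Fabp3, Colq and Cdkn2c. The share of 10% was reached by 15 of the 31 higher and 15 of the 42 lower genes, TdTomato among the latter.

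Rbp4 encodes retinol-binding protein 4, the carrier of retinol in plasma, and had the most UMIs of the 31 higher genes. Single reporter-high cells ran from 0 through a median of 103 to 5534 CPM of Rbp4, and reporter-low cells from 0 through a median of 0 to 4340 CPM. The ranges overlapped almost fully, and the transcript was found in 300 of 585 cells (51.3%), with 2141 UMIs in all, against 249 of 1018 cells (24.5%) with 1224 UMIs. Summed levels were 552 against 199 CPM, a ratio of 2.78 (2.59 to 2.98), with 430 CPM in the middle set. After thinning, 38.3% of reporter-high and 14.5% of reporter-low cells held an Rbp4 UMI, against 9.64% of the Epcam-positive cells, given as background. No cell gave more than 2.37% of the Rbp4 UMIs of its set. The ratio was 4.29, 3.52 and 2.15 in the lowest, middle and highest tertile of cells by total UMIs. Turned around, 54.6% of the 549 cells with an Rbp4 UMI were reporter-high (50.4 to 58.9%), against 27.0% of the 1054 cells without (24.4 to 29.8%), at median depths of 6839 and 5211.5 UMIs.

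Lamc3, a laminin gamma chain of basement membranes, was at 45.1 against 15.6 CPM, a ratio of 2.90 (2.24 to 3.75). Its median was 0 in both sets, its highest cell was at 1045 against 761 CPM, and 92 reporter-high (15.7%) and 62 reporter-low cells (6.09%) had a UMI. Hmcn2, which encodes the extracellular matrix protein hemicentin 2, was at 30.2 against 5.84 CPM, a ratio of 5.16 (3.53 to 7.72), from 55 and 27 cells. It fell just short of the 10% share and is among the genes chosen after their values were seen. Both genes were higher in each tertile of depth, Lamc3 by 2.39 to 3.70-fold and Hmcn2 by 4.27 to 9.95-fold.

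Cdh22, a cadherin of cell adhesion, was at 25.3 against 9.26 CPM (ratio 2.73, 1.95 to 3.85). Fgl2, a secreted and membrane-bound fibrinogen-like protein, was at 59.6 against 21.9 CPM (2.72, 2.19 to 3.39), and Pla2g7, the platelet-activating factor acetylhydrolase, at 59.3 against 25.8 CPM (2.30, 1.87 to 2.83). Among cells with a Slc7a10 or Bmper UMI, both genes of alveolar fibroblasts, Fgl2 was at 1.49. Of the 15 higher genes that reached the 10% share, Acta2, Igfbp5 and Tpm2 are described further below. The other 7 were the copine gene Cpne8 (2.48), the protease inhibitor gene Serpinb1a (2.28), Tmem158 (2.24), Tmem163 (2.18), the long non-coding RNA Meg3 (2.16), D430041D05Rik (2.12) and the lysosomal mannosidase gene Manba (2.01), all by ratio. These 7 were low genes, with at most 64.5 CPM in reporter-high cells and a UMI in no more than 102 of them. Tmem163 reached 79.3 CPM in the Epcam-positive cells, and after thinning 15.7% of those cells held a UMI of it, against 8.08% of reporter-high and 2.18% of reporter-low cells, so its level there was above that of either fibroblast set. From the lowest to the highest tertile of depth the ratio was 6.36, 2.77 and 1.47 for Tmem163 and 10.3, 2.39 and 1.42 for D430041D05Rik, and Manba was at 1.11 in the lowest tertile.

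**Figure D2:**
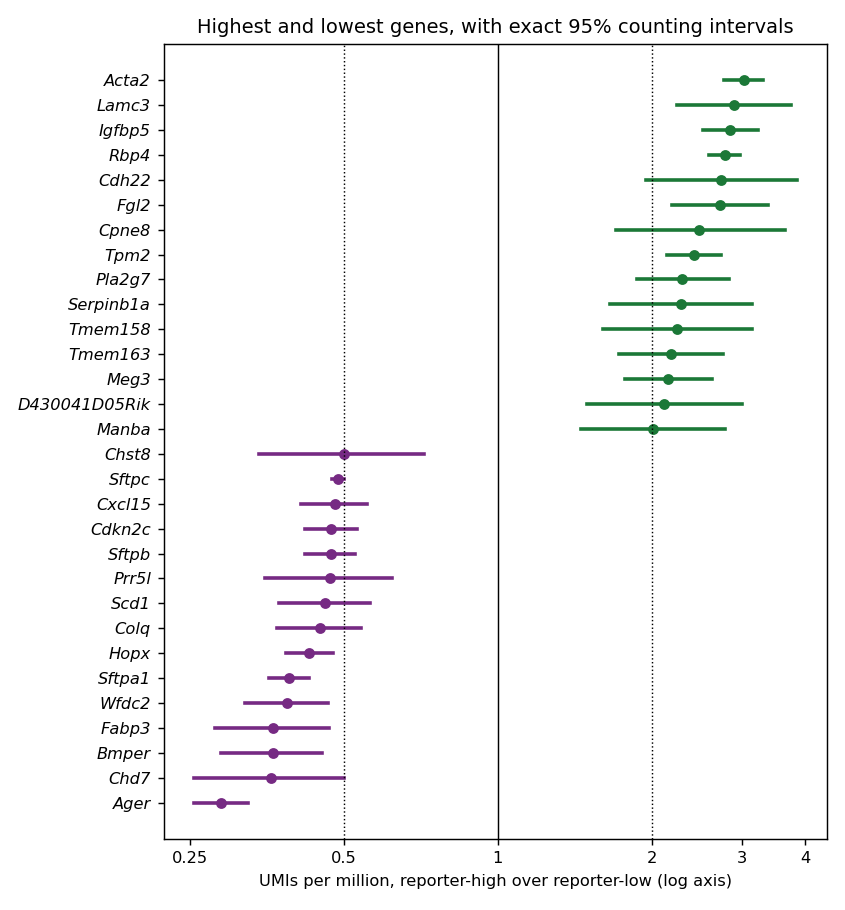
Ratio of CPM in 585 reporter-high over 1018 reporter-low alveolar fibroblasts (log axis) for the 15 highest and 15 lowest genes with a UMI in at least 10% of the cells of the higher set, with exact 95% counting intervals and dotted lines at 0.5 and 2. The highest are led by Acta2 at 3.03 and Lamc3 at 2.90, and the lowest by Ager at 0.288.

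The lower genes included genes of fibroblasts and genes of alveolar epithelium. Bmper, a secreted regulator of bone morphogenetic proteins, was at 24.8 against 68.2 CPM, a ratio of 0.363 (0.288 to 0.454). It had a UMI in 74 of 585 reporter-high cells (12.6%) and 295 of 1018 reporter-low cells (29.0%), with a median of 0 in both and highest cells at 897 and 925 CPM. After thinning the shares were 6.87% and 14.1%, against 0.298% in the Epcam-positive cells. The ratio was 0.505, 0.257 and 0.445 from the lowest to the highest tertile of depth.

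Colq, the collagen-like tail of acetylcholinesterase, was at 37.7 against 83.9 CPM (ratio 0.449, 0.371 to 0.540) and had a UMI in 17.9% against 31.9% of cells. Cdkn2c, an inhibitor of cyclin-dependent kinases, was at 94.4 against 199.7 CPM (0.473, 0.419 to 0.532), and its median cell was at 0 in the reporter-high and 104 CPM in the reporter-low set. Chd7, a chromatin remodeller, was at 11.6 against 32.2 CPM (0.361, 0.255 to 0.501), and Fabp3, a fatty acid binding protein, at 19.6 against 53.9 CPM (0.364, 0.280 to 0.468). Prr5l, which encodes a protein associated with mTOR complexes, had a ratio of 0.469 and Chst8, a sulfotransferase gene, one of 0.50.

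The listed markers of alveolar fibroblasts were lower as a group. Of 14 measured members, 13 had a ratio whose interval lay below 1, as 8.80% of all genes tested did, none had one above 1, and the median was 0.737 against 0.997 over all genes. Bmper was the only member at 0.5-fold or less. Rgcc, a regulator of the cell cycle, was at 45.1 against 86.9 CPM (0.520), and Slc7a10, an amino acid transporter, at 82.0 against 157.3 CPM (0.521, 0.458 to 0.592). Slc7a10 had a UMI in 162 reporter-high (27.7%) and 479 reporter-low cells (47.1%). Ces1d, a carboxylesterase, was at 330.3 against 586 CPM (0.564), Wnt2, a Wnt ligand, at 105.5 against 178.9 CPM (0.590) and Fgfr4, a fibroblast growth factor receptor, at 71.9 against 110.4 CPM (0.652). In the Epcam-positive cells Rgcc was at 308 and Ces1d at 382 CPM, while Slc7a10, Wnt2 and Fgfr4 were at 9.31, 10.6 and 6.97 CPM. The part of epithelial RNA in the ratios of Rgcc and Ces1d was not tested. Mfap4 was at 3383 against 4489 CPM (0.754) and had a UMI in 99.3% and 99.0% of cells. Cdh11, cadherin 11, was the member nearest to 1, at 551 against 552.5 CPM (0.997, 0.944 to 1.05). The rule genes Npnt (0.727), Tcf21 (0.767) and Inmt (0.924) were lower too, and since they chose the cells these values only describe them.

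The share of reporter-high cells followed the same markers. It was 20.1% of the 369 cells with a Bmper UMI (16.1 to 24.5%) and 41.4% of the 1234 without (38.6 to 44.2%). For Slc7a10 it was 25.3% of 641 cells with a UMI (22.0 to 28.8%) and 44.0% of 962 without (40.8 to 47.2%). Cells with both transcripts were reporter-high in 40 of 247 cases (16.2%, 11.8 to 21.4%). Median depths of the groups with and without a UMI were 5421 and 5804.5 for Bmper and 5548 and 5863 for Slc7a10, and the part of this depth gap was not tested.

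Among cells with neither a Slc7a10 nor a Bmper UMI, 389 reporter-high against 451 reporter-low, 15 genes were at least 2-fold higher. Rbp4 was at 2.05, Lamc3 at 2.56, Hmcn2 at 4.42, Colq at 0.598 and Cdkn2c at 0.853 there. Among the 196 against 567 cells with a UMI of either gene, Rbp4 was at 3.27, Lamc3 at 2.31, Cdkn2c at 0.475 and Colq at 0.516. Of Rbp4, Lamc3, Colq and Cdkn2c, which are given for both subsets, Cdkn2c thus had the ratio that differed most, a difference that was not tested.

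Genes of alveolar epithelium made up much of the lower side. The summed alveolar type 2 list was at 2703 against 5575 CPM. Of its 12 measured members 9 were at 0.5-fold or less, beside 0.509% of all genes, and the median was 0.455. All 12 members were detected in both sets, with Sftpc at 1886 against 3868 CPM (0.488, 0.475 to 0.501), and none of the defining markers was at 0. Single cells ran from 0 to 139176 CPM of the list in the reporter-high and to 261857 CPM in the reporter-low set, while the medians were close, at 864 and 903 CPM. In the alveolar type 1 list 3 of 9 measured members were at 0.5-fold or less, beside the same 0.509% (median 0.527, sum 713 against 1289 CPM). Emp2 of this list gave 443 CPM of the reporter-low sum and had a UMI in 87.4% of reporter-low cells. The sum is therefore no measure of epithelial RNA alone. Ager, a receptor of alveolar type 1 cells, was at 80.5 against 279.3 CPM (0.288, 0.255 to 0.325), and Hopx, a homeodomain protein, at 117 against 272 CPM (0.429). The Epcam-positive cells had 221 CPM of Hopx, less than the reporter-low fibroblasts. A single cell gave 16.2% of the reporter-low Ager UMIs and another 26.5% of the reporter-high Sftpc UMIs.

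When cells with 0.5% or more of their UMIs from these epithelial lists were left out, 568 reporter-high and 961 reporter-low cells remained. In them 14 genes rather than 42 were at 0.5-fold or less, and 35 rather than 31 at 2-fold or more. Sftpc was then at 0.939, Ager at 0.581 and Hopx at 0.561, while Bmper was at 0.366, Chd7 at 0.359, Fabp3 at 0.356 and Colq at 0.460. The ratios of Bmper, Chd7, Fabp3 and Colq were thus close to those over all cells, and the part of epithelial RNA in them was not tested. Chd7 was also found in 22.6% of the Epcam-positive cells, at 24.8 CPM. The other epithelial genes among the 15 lowest were Sftpa1 (0.391), Sftpb (0.471), Wfdc2 (0.388) and the lung chemokine gene Cxcl15 (0.480), and Scd1, a fatty acid desaturase, was at 0.459. In the lowest tertile of depth these ratios were not below 1, at 1.5 for Sftpa1, 1.07 for Sftpb, 1.19 for Wfdc2, 1.24 for Cxcl15, 1.16 for Scd1 and 1.01 for Sftpc. Ager (0.441) and Hopx (0.600) were below 1 in that tertile. The part of depth was not tested. From 1000 to 2000 CPM of Egfp, Sftpc (4696 CPM), Sftpa1 (478), Sftpb (260) and Cxcl15 (142) lay above the reporter-low cells (3868, 405, 221 and 126). Wfdc2 (80.5) and Scd1 (68.6) lay below them there (94.5 and 69.7). After thinning, 13.2% of reporter-high and 13.6% of reporter-low cells held a Sftpa1 UMI. Leukocyte markers, summed, were at 109 against 157 CPM and endothelial markers at 117 against 160 CPM, with Emcn at 0 in both sets. The measured members of each list went both ways. Of 2 endothelial markers Tmem100, with a UMI in 38.8% of reporter-low cells, was at 0.577 and Ramp2 at 1.15. Of 4 leukocyte markers H2-Ab1 was lowest at 0.523 and Cd3e highest at 1.25, with a median of 0.603. The part of leukocyte and endothelial RNA in these results was not tested.

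Hedgehog pathway genes leaned to the reporter-high cells, below 2-fold for every member with at least 100 UMIs. Of 17 listed genes, 11 reached 100 UMIs, 6 had an interval above 1, beside 9.40% of all genes, and none had one below 1, with a median of 1.27. By 1.5-fold 4 of 11 were higher, beside the 1.94% of all genes. The ligand Ihh had no UMI in either set, and Shh and Dhh had no more than 3 UMIs in a set. Among receptors and co-receptors, Ptch1 was at 160 against 91.9 CPM (ratio 1.74, 1.55 to 1.95), with a UMI in 272 (46.5%) and 331 cells (32.5%). Its median cell was at 0 in both sets and its highest at 2026 and 1263 CPM, and after thinning 23.0% and 14.8% of cells held a UMI, against 5.18% of the Epcam-positive cells. The co-receptors Cdon (1.99, 1.49 to 2.66), Boc (1.31, 1.15 to 1.48) and Gas1 (1.27, 1.19 to 1.36) were higher as well, with Cdon at 1.37 among cells without a Slc7a10 or Bmper UMI and 3.45 among cells with one. In the reporter-high cells with Egfp from 4000 CPM upward Cdon was at 9.89 CPM (5.11 to 17.3), against 14.3 in the reporter-low cells. The signal transducer Smo (1.17, 0.961 to 1.43) had an interval that held 1.

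Of the transcription factors, Gli1 itself was rare, with 48 UMIs in 43 reporter-high cells and 31 UMIs in 30 reporter-low cells. These amount to 12.4 and 5.03 CPM, a ratio of 2.46 (1.53 to 4.0), and after thinning to 1.20% and 0.397% of cells, where the Epcam-positive cells had 0.298%. Most reporter-high cells thus had no Gli1 UMI at sampling. Gli2 was at 1.25 (0.829 to 1.89) and Gli3 at 1.16 (0.775 to 1.72), and the inhibitor Sufu (1.03) and the adaptor Spop (0.971), which acts in degradation of Gli proteins, stood near 1. Kif7, a ciliary kinesin of the pathway, had too few UMIs to reach the minimum (1.06, 0.498 to 2.18). Of the targets, Hhip, a secreted inhibitor of the ligands, was at 94.4 against 52.0 CPM (1.82, 1.56 to 2.12), and Foxf1, a forkhead factor of lung mesenchyme, at 61.4 against 32.6 CPM (1.88, 1.55 to 2.28). Foxl1, which lies beside Foxf1 in the genome, was at 11.9 against 4.38 CPM from 46 and 27 UMIs (2.71, 1.65 to 4.53). One cell gave 17.2% of the reporter-high Hhip UMIs. In the reporter-high cells with Egfp from 4000 CPM upward Hhip was at 48.6 CPM (37.0 to 62.7), no higher than in the reporter-low cells, and without cells rich in epithelial RNA Hhip was at 1.48.

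**Figure D3:**
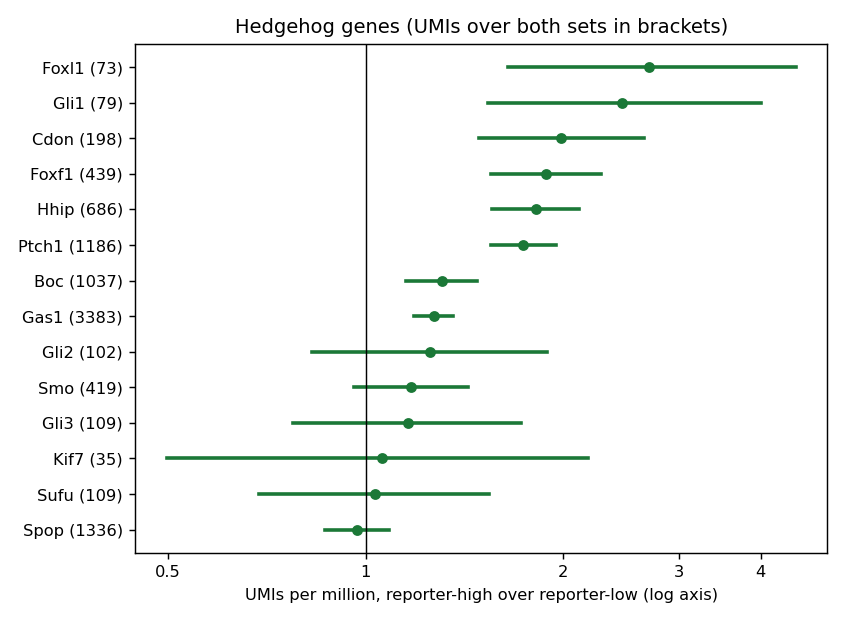
Ratio of CPM in reporter-high over reporter-low alveolar fibroblasts (log axis) for 14 hedgehog pathway genes, with the UMIs over both sets in brackets and exact 95% counting intervals. Ptch1, Hhip, Foxf1, Cdon, Gli1, Foxl1, Boc and Gas1 have intervals above 1, and no gene has one below 1.

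Several adventitial fibroblast genes were somewhat higher in the reporter-high cells. Of 22 listed markers 15 were measured, 12 with an interval above 1 (9.40% of all genes) and none below (8.80%), and the median was 1.28. Igfbp4, an insulin-like growth factor binding protein, was at 543 against 319 CPM (1.70, 1.60 to 1.81), Fbln2, the matrix protein fibulin 2, at 24.8 against 15.1 CPM (1.64) and Dcn, the proteoglycan decorin, at 627 against 383 CPM (1.64, 1.55 to 1.73). In the ranges of Egfp from 1000, 2000 and 4000 CPM Dcn was at 1005, 646 and 362 CPM, so its highest range did not lie above the reporter-low cells. Dcn stayed far under its level of 10874 CPM in Pi16-positive cells. After thinning, 29.9% of reporter-high and 15.6% of reporter-low cells held a Dcn UMI, and 10.4% of the Epcam-positive cells did. Gsn, the actin-severing protein gelsolin, was close to 1 (1.03). The summed list was at 20966.5 against 19262 CPM, and Ebf2 had no UMI in either set. Lum, the proteoglycan lumican, was at 3.22, but 1 cell gave 46.7% of its reporter-high UMIs. The minimums of Npnt, Tcf21 and Inmt bear on Dcn, which was at 1.17 when each was set to 1 UMI.

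Secreted immune genes showed a similar shift. In the list of complement, chemokine and cytokine genes 13 of 18 measured members had an interval above 1 (9.40% of all genes) and 1 had one below (8.80%), with a median of 1.27 and none at 1.5-fold. Cxcl14, a chemokine, ran from 0 through a median of 1979 to 12329 CPM in reporter-high cells and from 0 through 1376 to 9566 CPM in reporter-low cells. It was detected in 98.1% and 94.7% of cells, so here the level per cell rather than the share of cells differed (ratio of sums 1.34, 1.31 to 1.38). The complement protease gene C1s1 was at 318 against 226 CPM (1.41, 1.30 to 1.52) and the neutrophil chemokine gene Cxcl1 at 340 against 245 CPM (1.39). The complement gene C7 was the member with an interval below 1 (0.887, 0.814 to 0.967). Ccl7, a monocyte chemokine, rested on 14 and 20 cells (1.41).

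Growth factor binding genes went both ways. Igfbp6 was at 1073 against 707 CPM (1.52, 1.46 to 1.58), with medians of 725 and 374 CPM per cell, whereas Igfbp3 was at 355 against 470 CPM (0.757, 0.709 to 0.807). In the list of bone morphogenetic protein and transforming growth factor beta genes the median was 1.03, between Bmper at the low end and Ltbp2 (2.33, 1.70 to 3.19) and the ligand Tgfb3 (1.67, 1.40 to 1.98) at the high end. Ltbp2, a binding protein of elastic fibres, was at 1.29 among cells with no UMI of Hhip, Acta2 or Aspn. In the Wnt list, with a median of 1.11, the receptor Fzd2 was at 1.28, and the ligand Wnt2 (0.590), the secreted inhibitor Notum (0.650) and the target gene Axin2 (0.767) were lower.

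Matrix genes had list medians of 1.06 for collagens, 1.13 for elastic fibre genes and 1.11 for proteoglycan and adhesive matrix genes. Within them Col15a1 (1.84, 1.43 to 2.36) and Col16a1 (1.48) were higher. Col23a1, a transmembrane collagen, was lower at 40.2 against 77.8 CPM (0.517, 0.429 to 0.621), as was Tnc, the matrix glycoprotein tenascin C, at 56.0 against 110.9 CPM (0.505, 0.431 to 0.589). Col4a3, a basement membrane collagen chain, was at 0.438 from 18 and 29 cells. Has1, a hyaluronan synthase, was at 78.7 against 41.2 CPM (1.91), the integrin chain Itgb8 at 1.75, the cathepsin Ctsk at 1.61, the matrix metalloprotease Mmp2 at 1.32 and the protease inhibitor Timp3 at 1.29.

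Among 22 measured transcription factors of lung mesenchyme the median was 1.02, with 3 at 1.5-fold or more (1.94% of all genes). Besides Foxf1 these were Osr1 (1.63, 1.42 to 1.89) and Gata6 (1.64, 1.27 to 2.12), factors with roles in lung and mesoderm development. Foxf2, the relative of Foxf1, was lower at 48.0 against 65.8 CPM (0.729, 0.610 to 0.870).

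Lipid and retinoid genes matter for alveolar fibroblasts because a lipid-storing subset handles retinol. The list of lipid droplet and fatty acid genes had a median of 0.808, with 7 of 15 members below 1 by their interval (8.80% of all genes) and none above, and Plin2, a lipid droplet coat protein, was at 137 against 182 CPM (0.752, 0.677 to 0.835). Scd1 above belongs to this list. It was at 2579 CPM in the Epcam-positive cells, and 10.6% of cells in each fibroblast set held a UMI. The part of epithelial RNA in its ratio was not tested. The retinoid list had a median of 1.03 and split, with Rbp4 at 2.78 and both Aldh1a1, a retinaldehyde dehydrogenase, at 0.722 (0.678 to 0.769) and Lrat, which esterifies retinol for storage, at 0.765 (0.709 to 0.826).

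**Figure D4:**
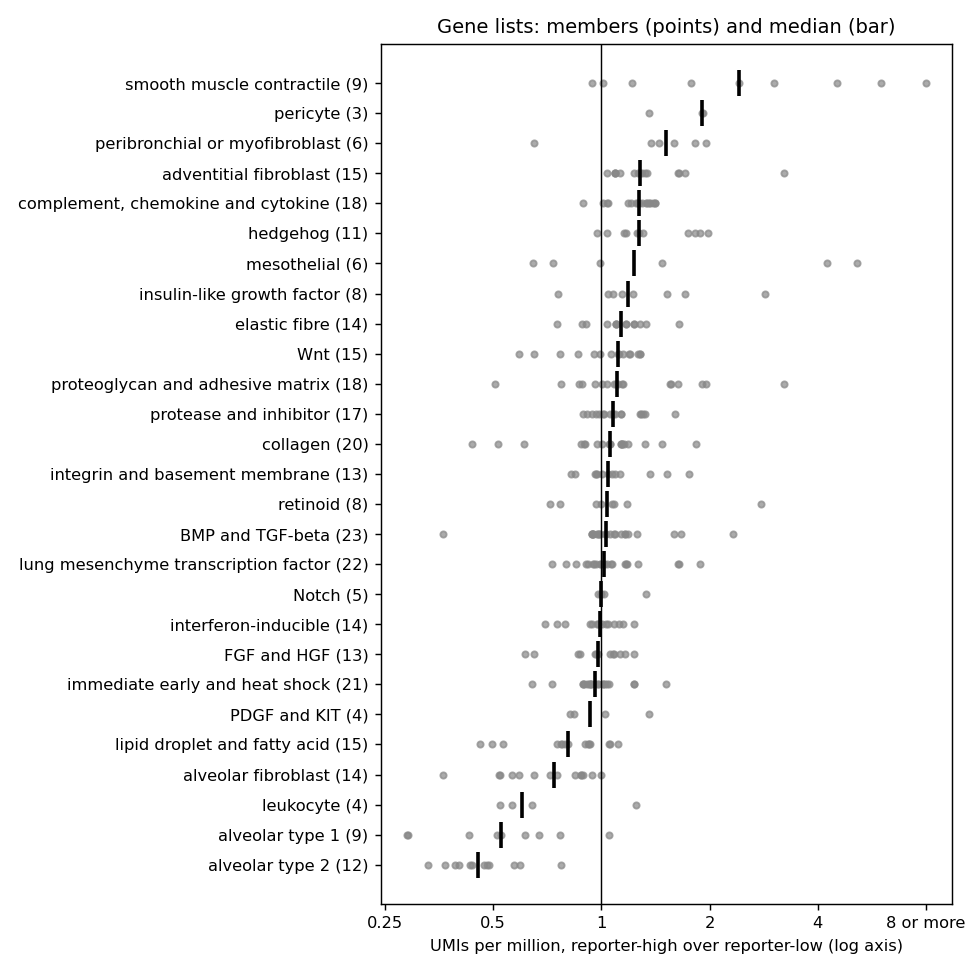
Ratio of CPM in reporter-high over reporter-low alveolar fibroblasts (log axis, values from 8 upward drawn at 8) for each measured member of 27 gene lists, as points, and the list median, as a bar, with the number of measured members in brackets. The alveolar type 2 and type 1 lists lie lowest at medians of 0.455 and 0.527, the alveolar fibroblast list is at 0.737, and the smooth muscle contractile list is highest at 2.42.

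Genes of contractile cells had the highest list median, 2.42, and rested on few cells. Of 9 measured members 5 were at 2-fold or more, beside 0.376% of all genes. Acta2, smooth muscle actin, was at 386 against 127 CPM (3.03, 2.78 to 3.31), but a single cell with 427 UMIs gave 28.5% of the reporter-high UMIs, and the middle set had 528 CPM. Myh11, smooth muscle myosin, was at 4.52 from 18 cells in each set, Actg2 at 6.01 from 9 and 11 cells and the cardiac actin Actc1 at 68.3 (22.9 to 336) from 10 and 3 cells. Per cell the summed list had medians of 707 and 727 CPM and highest values of 54980 and 46443 CPM. Tagln, an actin-binding protein gene with a UMI in 253 and 563 cells, was at 1.01 (0.949 to 1.08) and Des, desmin, at 0.945. Tpm2 was at 2.42 and Myl9, a myosin light chain, at 1.77. With only cells under 0.2% of UMIs from this list, 535 against 929, Acta2 was at 1.26 and Tpm2 at 1.59, while Rbp4 was at 2.73, Bmper at 0.354 and Ptch1 at 1.68. Acta2 was also at 1.03 with reporter-high cells taken from 2000 CPM of Egfp upward.

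The mesothelial genes Msln (5.15) and Upk3b (4.24) rested on 7 reporter-high cells each, with 4 and 10 reporter-low cells, and both were below 1 after removal of doublets. Of 6 measured mesothelial markers, 3 had an interval above 1 (9.40% of all genes) and 1 had one below (8.80%). The latter was Upk1b at 0.647, with a UMI in 33.2% of reporter-low cells. Igfbp5, an insulin-like growth factor binding protein, at 184 against 64.6 CPM (2.85), had 1 cell with 37.2% of its reporter-low UMIs, and was at 0.795 without the called doublets. Lum was then at 1.11. Scrublet called 14 doublets in each set (2.39% of reporter-high and 1.38% of reporter-low cells). Aspn, a myofibroblast marker and small proteoglycan, was at 55.2 against 28.3 CPM (1.95).

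Pericyte markers were mostly too low to measure, 3 of 10 reaching the minimum. Kcnj8 and Abcc9, subunits of one ATP-sensitive potassium channel and neighbours on chromosome 6, were at 48.2 against 25.3 CPM (1.90, 1.53 to 2.37) and 43.8 against 22.9 CPM (1.92, 1.52 to 2.41). Each had a UMI in 123 reporter-high cells, and in 110 and 102 reporter-low cells. Both genes are also detected in Pi16-positive cells, at 82.0 and 143 CPM. Pdgfrb, a receptor of mesenchymal cells, was at 1.36.

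Other lists centred near 1. Medians were 1.0 for Notch genes, 0.995 for interferon-inducible genes, 0.978 for fibroblast and hepatocyte growth factor genes and 0.959 for immediate early and heat shock genes. In the growth factor list the receptor Fgfr3 was at 1.23 and the feedback phosphatase Dusp6 at 0.612 (0.514 to 0.726). In the stress list the heat shock gene Hspb1 was at 431 against 671 CPM (0.643, 0.607 to 0.681) and the immediate early gene Egr3 at 1.51, and 12 of 21 members had an interval below 1 (8.80% of all genes) and 3 one above (9.40%). The medians of the lists not yet given were 0.932 for PDGF and KIT genes, 1.05 for integrin and basement membrane genes, 1.07 for proteases and their inhibitors, 1.19 for insulin-like growth factor genes, 1.23 for mesothelial markers and 0.603 for 4 measured leukocyte markers. Peribronchial and myofibroblast markers had a median of 1.52 over 6 measured members, 5 with an interval above 1 (9.40% of all genes) and Notum with one below (8.80%). Club, ciliated, endothelial and cell cycle genes had 2 measured members each, and erythroid and glial genes had 0.

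Across ranges of Egfp, genes differed in where the middle set lay. Rbp4 was at 199 CPM below 200 CPM of Egfp, at 430 (393 to 469) from 200 to 1000, and at 542, 570 and 530 in the ranges from 1000, 2000 and 4000 CPM. By CPM the middle set thus lay closer to the reporter-high cells for Rbp4. Ptch1 ran from 91.9 through 131 to 150, 171 and 149 CPM. By share of cells with a UMI, the middle set lay with the reporter-low cells for both genes. Rbp4 was found in 24.5% of reporter-low and 26.7% of middle cells, against 58.6, 53.7 and 44.9% in the ranges from 1000, 2000 and 4000 CPM. For Ptch1 the shares were 32.5 and 31.3%, against 50.5, 45.6 and 45.8%. For Bmper the middle set lay with the reporter-low cells, at 68.2 and 66.0 CPM below the upper threshold and 25.1, 24.1 and 25.5 CPM above it. Slc7a10 was at 157.3 and 154.5 CPM below it and 81.8, 79.2 and 86.5 CPM above, and Cdkn2c at 199.7 and 210 CPM below and 87.1, 88.7 and 108 CPM above. Foxf1 had 32.6, 41.7, 48.8, 60.3 and 70.9 CPM from the lowest range to the highest, with the intervals of neighbouring ranges overlapping and those of the lowest and highest apart. Above 1000 CPM, the ranges of Rbp4, Ptch1, Bmper, Slc7a10, Cdkn2c and Foxf1 overlapped in their CPM intervals. Such overlap does not show equal levels, and a further change of these 6 genes with Egfp was not tested. Other genes did not share this overlap. Hhip was at 121 CPM (106 to 137) from 2000 to 4000 CPM of Egfp and at 48.6 above, Cdon at 36.2 (28.2 to 45.8) and 9.89, and Dcn at 646 (611 to 683) and 362 (329 to 397). Their ratios therefore rest on the cells with 1000 to 4000 CPM of Egfp.

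**Figure D5:**
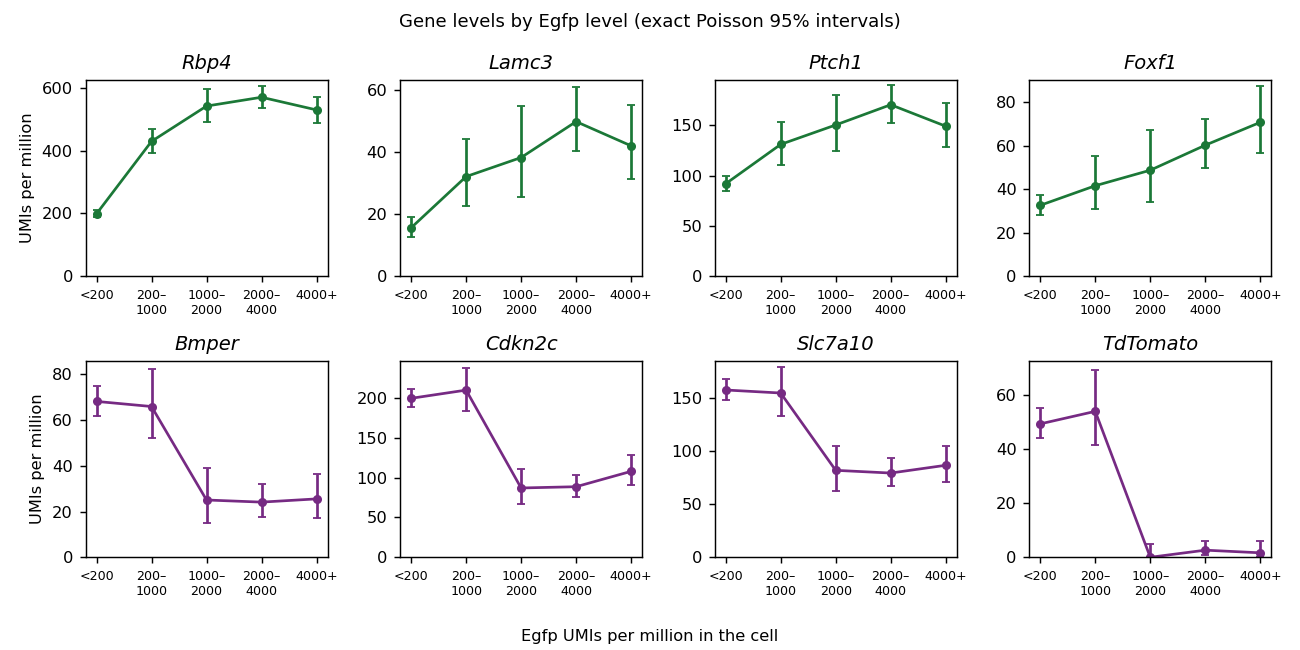
CPM of 8 genes in alveolar fibroblasts by range of Egfp CPM of the cell (1018, 195, 99, 272 and 214 cells), with exact Poisson 95% intervals. By CPM, Rbp4 (430), Lamc3 (32.1), Ptch1 (131) and Foxf1 (41.7) lie above their lowest level already from 200 to 1000. Bmper, Cdkn2c, Slc7a10 and TdTomato are at about the same level in the lowest 2 ranges and lower from 1000 upward. The share of cells with an Rbp4 UMI, not drawn, was 26.7% from 200 to 1000 and 24.5% in the lowest range.

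The same contrast was made in Pi16-positive, Epcam-negative cells, of which 1604 were reporter-high and 1339 reporter-low (45.7% of 3510 at 1000 CPM or more, 44.0 to 47.4%). Rbp4 was at 714 against 681 CPM there (1.05, 1.02 to 1.08), a level above that of reporter-high alveolar fibroblasts in both sets. Gli1 was at 28.4 against 26.0 CPM (1.09, 0.945 to 1.27). Lamc3 was at 79.6 against 30.4 CPM (2.62, 2.33 to 2.95), Hhip at 216 against 110 CPM (1.96, 1.84 to 2.09), Ptch1 at 227 against 147 CPM (1.54, 1.46 to 1.63) and Foxl1 at 26.4 against 13.3 CPM (1.99, 1.65 to 2.39). Several genes had ratios on the other side of 1 from those in alveolar fibroblasts. Among them were Cdon (0.697, 0.646 to 0.751), Mfap4 (1.39, 1.37 to 1.41) and Dcn (0.823, 0.817 to 0.829). Notum, at 0.650 in alveolar fibroblasts, was at 4.34 (3.63 to 5.23) in the Pi16-positive cells. Igfbp4 (0.782, 0.771 to 0.793), Acta2 (0.811, 0.763 to 0.862), Tmem163 (0.735, 0.566 to 0.953) and Gas1 (0.946, 0.910 to 0.983) were also among them. Bmper was at 2.17 against 5.40 CPM and Colq at 3.51 against 9.92 CPM, ratios of 0.402 and 0.354, at levels far below those of alveolar fibroblasts. Epithelial genes were lower in the reporter-high Pi16-positive cells too, with Sftpc at 1195 against 3594 CPM (0.333). Cxcl15 was at 0.321, Wfdc2 at 0.383, Sftpb at 0.399, Sftpa1 at 0.415 and Ager at 0.430. Their lower ratios were thus not particular to alveolar fibroblasts. The difference between the 2 kinds of fibroblast was not tested, since both come from 1 library.

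The authors' deposited table of 17 clusters gives values that can be set beside these without any match of its clusters to the cells chosen here. In the authors' deposited table cluster 1 had the highest mean counts of Inmt (41.2), Npnt (17.1), Tcf21 (7.08), Bmper (0.557) and Cdkn2c (1.63), with Egfp at 7.65, TdTomato at 0.373 and Rbp4 at 0.894. Cluster 10 of the authors' deposited table was second in Inmt (39.6), Npnt (7.57) and Tcf21 (4.0), with Egfp at 12.7, TdTomato at 0.0725, Rbp4 at 5.27, Bmper at 0.0932 and Cdkn2c at 0.520.

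Coordinates of the genes followed most closely are from GENCODE M21 on build mm10. Rbp4 spans chromosome 19 from 38116629 to 38125281 on the minus strand, Ptch1 chromosome 13 from 63508328 to 63573598 on the minus strand, Bmper chromosome 9 from 23223076 to 23485200 on the plus strand and Slc7a10 chromosome 7 from 35186385 to 35201114 on the plus strand. Hmcn2 and Lamc3 are on chromosome 2, from 31314415 to 31460738 and from 31887291 to 31946539, both on the plus strand. Counts per gene do not tell which exons or untranslated regions the 3′ reads came from.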

How the data were processed

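The submitters' processing notes name Cell Ranger 3.0.0 and build mm10. The matrix deposited by the authors is of whole UMI counts, 85746975 in all, for 31055 features and 11118 barcodes. A second deposited table lists, per the file headers, mean counts by cluster, taken here as a score of unknown scale, and a log2 fold change, of which only the means are printed. How those values were scaled is not given in the sources used here.

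UMIs were summed over the cells of each set, divided by the set's total and given as CPM. A gene needed 100 UMIs in the 2 sets together, and was called higher at a ratio from 2 upward and lower at a ratio of up to 0.5, without the genes that chose the cells. The calculation was tested on simulated data with known ratios. These were summed counts with counting error only, so spread between cells was not part of that check. The members and the 33 gene lists with 470 genes were chosen with earlier results of these data known. Named genes were the 15 highest and 15 lowest with a UMI in at least 10% of the cells of the higher set, outside mitochondrial, ribosomal protein, reporter and rule genes, the hedgehog list, and the 2 highest and 2 lowest measured members of each list. Hmcn2, Slc7a10, Ces1d, Dcn, Myh11, Myl9, Cxcl1, Cxcl14, Igfbp6, Osr1, Axin2, Timp3, Has1 and Plin2 fall outside that rule and were chosen after their values were seen. Doublets were called with Scrublet in scanpy 1.11.5 and removed only as an alternative. For shares of cells, each cell was thinned to 2000 UMIs. Coordinates of 195 of 197 genes sought were found by gene identifier. Tools were Python 3.11.15, numpy 2.4.6, scipy 1.17.1, pandas 2.3.3, matplotlib 3.10.9 and, for an alternative scaling with no test, edgeR 4.0.16 in R 4.3.3. Files of sequencing yield were not used, and 1 hedgehog pathway gene is not reported here. PCR duplicates were removed by UMI, and intervals cover counting error only. Alternatives in thresholds, filters, scaling, depth, doublets and cell identity were computed, and 5 of them were added after the data were seen: cells poor in alveolar epithelial UMIs, cells poor in contractile UMIs, cells with and without a Slc7a10 or Bmper UMI, and a fold of 1.5.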

Additional observations from a re-analysis of the deposited data

How the results depend on the processing

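The main counts were 31 genes at 2-fold or more and 42 at 0.5-fold or less. The lower count was 24 when reporter-low cells had no Egfp UMI, and, among alternatives chosen after seeing the data, 14 in cells with under 0.5% alveolar epithelial UMIs and 24 in cells with a Slc7a10 or Bmper UMI. The higher count was 15 in cells without a Slc7a10 or Bmper UMI. Of the 42 lower genes, 13 stayed at 0.5-fold or less against cells with no Egfp UMI, where 30 reached the UMI minimum, and 9 in cells poor in epithelial UMIs, where 21 did. Of the 31 higher genes, 17 stayed at 2-fold or more with 1 UMI each of Npnt, Tcf21 and Inmt. At a minimum of 30 UMIs the counts were 99 and 155, without a minimum 1484 and 1924, and at 1.5-fold, added after seeing the data, 160 and 187. Without any UMI of Ly6a, Clec3b, Dpp4 or Mfap5, 6 and 37 cells remained with 4 genes called each way, so that setting tells little.

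Under the alternatives, 1321 values of single genes stayed within their main counting interval, 295 left it and 19 crossed 1 from an interval that did not hold it. Rbp4 ranged from 2.05 to 3.47, Lamc3 from 2.31 to 3.42, Hmcn2 from 4.21 to 8.50, Ptch1 from 1.54 to 1.83, Colq from 0.432 to 0.598, Chd7 from 0.332 to 0.506 and Bmper from 0.331 to 0.580, leaving out the setting with 6 and 37 cells. Values that crossed 1 were Myh11 at 0.679 with Egfp from 2000 CPM, Igfbp5 at 0.795, Upk3b at 0.0467 and Msln at 0.149 without doublets, and Igfbp5 at 0.760, Upk3b at 0.805 and Msln at 0.600 with 1 UMI each of Npnt, Tcf21 and Inmt. The median of the leukocyte list was 1.11 against cells with no Egfp UMI and 1.43 with 1 UMI each of the rule genes. In the 6 and 37 cells, Ces1d was at 1.08, Wnt2 at 1.35, Cxcl1 at 0.706, C7 at 2.01 and Mmp2 at 0.659. Without UMIs of Hhip, Acta2 or Aspn, Ccl7 was at 0.268 and C7 at 1.01. Cxcl15 was at 1.22 in cells poor in epithelial UMIs, and Axin2 at 1.0 in cells with neither Slc7a10 nor Bmper. In cells with either gene, Ccl7 was at 0.539, C7 at 1.10 and Col4a3 at 1.09. The cause was not tested. TMM scaling changed no count.

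No paired analysis was possible because cells cannot be assigned to samples here and all 4 samples form 1 group. Leaving out each sample in turn was not possible for the same reason, so the spread between animals is unknown. Depth limits the hedgehog genes with under 100 UMIs over both sets, Gli1, Foxl1, Kif7 and the ligands.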
